A study of Mus musculus with 2 samples.

Results

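The genes described here encode proteins that carry out or steer pre-mRNA splicing, chosen by symbol: the SR family (Srsf) and its relatives Tra2a and Tra2b, the heterogeneous nuclear ribonucleoproteins (Hnrnp), the branch-site factors (U2af, Sf3a and Sf3b), the proteins of the small nuclear ribonucleoproteins (Snrp) and the Prp factors (Prpf). The annotation holds 70 such genes, 63 of them could be matched to splice junctions in the data, and 62 had at least 20 junction-spanning reads over both libraries, out of 8531 genes that reached this depth. The study sequenced RNA of mouse macrophages with and without interleukin 10 (IL-10), a cytokine that acts as a brake on inflammatory gene expression, and deposited a single library for each condition. The macrophages came from male C57BL/6JJcl mice, whose peritoneal exudate cells were taken 3 days after thioglycolate, an irritant, and left to adhere for 24 h. The treated group then received 100 ng/ml of IL-10 over 4 h, and the other group is titled as untreated, although its treatment text repeats the IL-10 step. The labels do not say how many animals were pooled, and with 1 library per group the differences lack replication. The comparison asks whether the amounts of splicing factor transcripts, and the way these transcripts are themselves spliced, differed between the libraries.

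Splicing is carried out by the spliceosome, in which small nuclear RNAs and their proteins recognise the ends of an intron and its branch site. SR proteins bind exons and favour their inclusion, and many hnRNPs bind nearby sequence and favour skipping, so the balance between the families helps to set which exons a cell uses. Many genes of these families regulate themselves through a poison exon, an optional exon that carries a stop codon in the reading frame. A transcript that includes it is a target of nonsense-mediated decay, which destroys mRNAs with a premature stop, and a protein that promotes its own poison exon thereby limits its own amount.

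The poison exons on which the results below turn are shown from their first base to the annotated premature stop, 5′ to 3′, with the stop codon in capitals. Each sequence is that of the GENCODE M21 transcript, and exon positions are given on mm9. In Srsf3 the exon lies on the plus strand at chr17:29176399-29176854 and is 456 bases long, and its stop codon ends at base 34. In Tra2b it lies on the minus strand at chr16:22259059-22259334 (276 bases). In Tra2a it lies on the minus strand at chr6:49202802-49203107 (306 bases). In Hnrnpl it lies on the plus strand at chr7:29602354-29602423 (70 bases), in Hnrnpll on the minus strand at chr17:80444280-80444362 (83 bases) and in Sf3b1 on the minus strand at chr1:55071713-55071768 (56 bases).
Srsf3: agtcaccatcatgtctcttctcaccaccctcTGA
Tra2b: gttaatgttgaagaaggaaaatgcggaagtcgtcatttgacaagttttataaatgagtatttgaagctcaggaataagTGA
Tra2a: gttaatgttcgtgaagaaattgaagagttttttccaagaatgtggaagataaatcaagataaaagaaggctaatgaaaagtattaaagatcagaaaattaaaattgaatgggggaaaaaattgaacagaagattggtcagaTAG
Hnrnpl: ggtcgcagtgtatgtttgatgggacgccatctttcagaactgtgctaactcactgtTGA
Hnrnpll: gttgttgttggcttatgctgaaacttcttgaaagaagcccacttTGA
Sf3b1: gcttctattctgctgctTGA
The poison exons of the paralogues Tra2a and Tra2b open with the same 9 bases, gttaatgtt, and then differ. In Srsf3 the stop is followed by 422 further bases of the same exon, in Sf3b1 by 36.

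The measured value is the number of reads that cross a splice junction, 3998954 in total with IL-10 and 4035991 without, at a median of 7 for a junction. A gene's amount is the sum over its annotated introns that match no other gene, divided by all such reads of named genes (3847730 and 3877166). Its ratio is IL-10 over untreated. Intervals are exact 95% intervals of counting error alone. They do not include the spread between cultures or animals, and fewer cells of a type cannot be told apart from less RNA per cell. The 9 macrophage markers were all measured, with 4 intervals above 1, 4 below and a median log2 ratio of -0.05. They summed to 64492 reads with IL-10 and 79460 without, of which the lysozyme gene Lyz2 held 31849 and 45047. In contrast, T and NK cell markers together had 6 and 1 reads, B cell markers 6 and 8, and eosinophil and mast cell markers 7 and 10. Of 6 neutrophil markers 1 reached 20 reads (26 and 22), and fibroblast and mesothelial markers summed to 885 and 822 reads, with 2 of 5 measured. Reads were spread along genes alike in both libraries, over 4978 genes with at least 6 introns and 100 reads. Introns of the 5′ side held 44.3% of reads with IL-10 and 44.2% without. The insert size was given as 188 bp with IL-10 and 197 bp without, a difference that cannot be told apart from the treatment.

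Splicing factor transcripts were present in nearly the same amounts with and without IL-10. Together the genes held 21846 of the reads with IL-10 and 21391 without, or 0.568% and 0.552% of named reads, and over the 62 measured genes the ratio of the sums was 1.03 (95% interval 1.01 to 1.05). The median log2 ratio of the genes was 0.02, against -0.002 over all 8531 genes. Of the 62 genes, 43 (69.4%) lay within 1.25-fold of equal and 57 (91.9%) within 1.5-fold, where all genes gave 65.2% and 85.0%. Those shares are not matched for depth. With at least 100 reads, splicing factors gave 80% and 96%, against 75.6% and 93.7% of all genes. By the rule for a call, a ratio of at least 2-fold with an interval that excludes 1, 1 of 62 splicing factor genes was higher with IL-10 and 0 were lower, against a background of 1.76% and 1.51% of all genes. With the interval alone as the rule, 8 of 62 (12.9%) lay above 1 and 3 (4.84%) below, against 12.7% and 13% of all genes, so the higher side was close to the background. Among genes with 500 to 5000 reads, 5 of 28 splicing factors lay above 1 and 2 below, where the background was 22.5% and 20%. Among genes with 100 to 500 reads, 2 of 22 lay above and 1 below, where it was 10.4% and 11%.

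**Figure D1:**
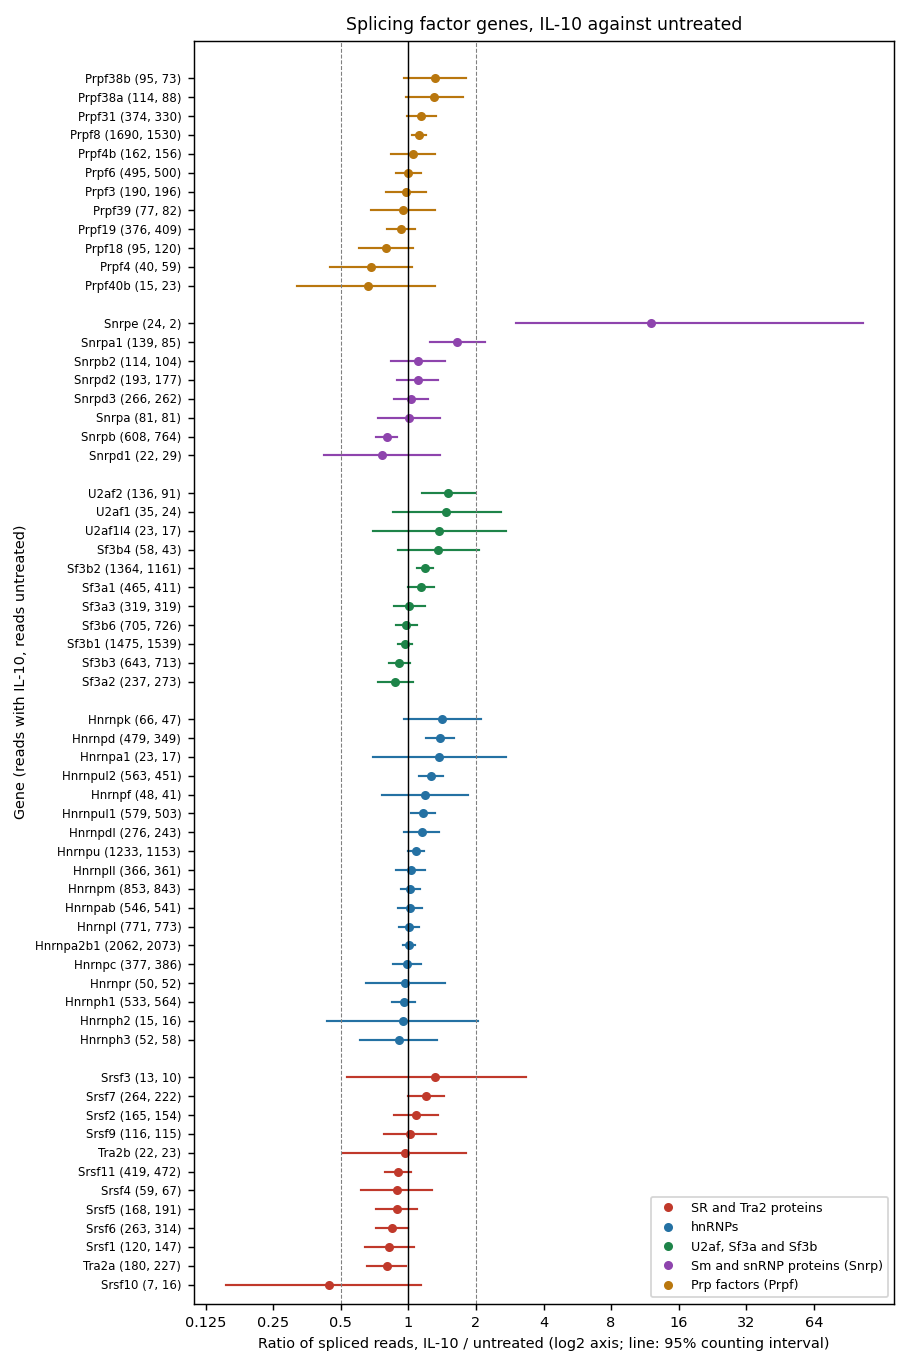
Ratio of junction-spanning reads, IL-10 over untreated, on a log2 axis for the measured splicing factor genes, except 1 not reported here, grouped by family, with the reads of both libraries in brackets after each name. Points are ratios, lines are 95% counting intervals (1 library per group), dashed lines mark 2-fold either way, and Snrpe is the only gene shown whose whole interval lies beyond a dashed line.

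**Figure D2:**
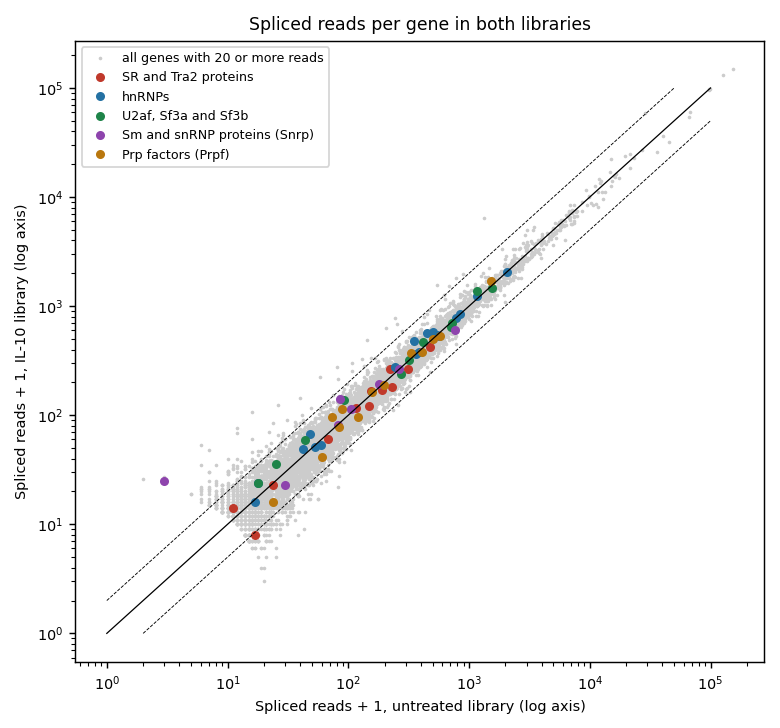
Junction-spanning reads per gene (reads plus 1, log axes) in the untreated library (horizontal) and the IL-10 library (vertical), with all 8531 genes in grey, splicing factors in colour by family, the diagonal solid and 2-fold lines dashed. Splicing factors follow the diagonal, and the purple point far above it is Snrpe with 24 and 2 reads.

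The SR proteins and Tra2 proteins, which bind exonic enhancers, had a median log2 ratio of -0.17 over 12 measured genes of 13. None of the 12 had an interval above 1 and 2 (16.7%) had one below, against 12.7% and 13% of all genes. Tra2a, a partner of SR proteins in exon activation (chr6:49194731-49213836), had 180 reads with IL-10 and 227 without, a ratio of 0.80 (0.65 to 0.98), with 6 of 7 introns on the lower side. Part of this lay in a junction that not every coding transcript uses, chr6:49194935-49195474, with 1 read with IL-10 and 11 without. Over the introns shared by all coding transcripts alone, the Tra2a ratio was 0.85 (0.70 to 1.05), an interval that includes 1.

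Srsf6, an SR protein of many exon targets (chr2:162757514-162760147), had 263 reads with IL-10 and 314 without, a ratio of 0.84 with an interval that almost reaches 1 (0.714 to 0.997). Its introns did not all share the difference. The first intron had 9 reads with IL-10 and 28 without, and the intron after it 14 and 31. The 3 introns at the 3′ end of the gene had 54, 108 and 72 reads with IL-10 and 50, 129 and 73 without. The largest relative difference was thus at the 5′ end, although the 3′ intron with 108 and 129 reads was lower with IL-10 as well. At its 5′ end this gene differed from the even pattern over all genes given above. Whether this is more than counting error was not tested.

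The other SR genes did not separate from equal. Srsf11 had 419 and 472 reads (0.89, 0.78 to 1.02), Srsf9 had 116 and 115 (1.02, 0.78 to 1.33) and Srsf1, the founding member of the family, had 120 and 147 (0.82, 0.64 to 1.05). Srsf7, which shuttles to the cytoplasm with mRNA, had 264 and 222 reads (1.198, 0.999 to 1.44), and its interval passed above 1 when the libraries were scaled by the TMM factor of edgeR or by all junction reads. Srsf5 had 168 and 191 reads and Srsf2 165 and 154. At the low end, Srsf10 had 7 reads with IL-10 and 16 without. Its ratio of 0.44 was past 2-fold, but it was not called, since its wide interval of 0.15 to 1.13 includes 1.

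The hnRNPs, which package nascent RNA and often oppose exon inclusion, had a median log2 ratio of 0.03 over 18 measured genes of 20, with 3 intervals (16.7%) above 1 and 0 below, near the 12.7% of all genes on the higher side. Of the 18 genes 12 had at least 500 reads, where 22.5% and 20% of all genes lay above and below. Hnrnpa2b1, an abundant binder of nascent RNA, had 2062 reads with IL-10 and 2073 without, a ratio of 1.002 (0.943 to 1.066), among the narrowest intervals of these genes. Hnrnpu (1233 and 1153 reads), Hnrnpm (853 and 843), Hnrnpl (771 and 773) and Hnrnpll (366 and 361) had ratios of 1.078, 1.02, 1.005 and 1.022, each with an interval that includes 1. Hnrnpll is known for skipping exons of the phosphatase gene Ptprc in lymphocytes.

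Hnrnpd (chr5:100390353-100407410), also called AUF1, binds AU-rich elements of cytokine mRNAs and directs their decay. It had 479 reads with IL-10 and 349 without, a ratio of 1.38 (1.202 to 1.59), and 8 of 10 introns lay on the higher side. Hnrnpul2 (chr19:8895304-8905944), a relative of Hnrnpu, had 563 and 451 reads, a ratio of 1.26 (1.11 to 1.43) with 10 of 11 introns on that side. Left out of this sum were 163 reads with IL-10 and 158 without on introns shared with another gene. They were 94 and 115 at chr19:8904441-8905377, and 69 and 43 at chr19:8905452-8905714. Hnrnpul1 (chr7:26507383-26539465), the paralogue of Hnrnpul2, had 579 and 503 reads, a ratio of 1.16 (1.03 to 1.31) with 12 of 14 introns. Outside these sums, Hnrnpul1 had 3 junctions that repeat the length of one of its annotated introns a few bases off, with 14 reads with IL-10 and 31 without. With them its ratio was 1.12 (0.994 to 1.26), an interval that includes 1. In Hnrnpd the higher count was uneven: the introns of the 5′ side had 137 reads with IL-10 and 131 without, those of the 3′ side 170 and 122, and the intron between them, chr5:100393103-100393688, 172 and 96.

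The factors that recognise the 3′ end of the intron had a median log2 ratio of 0.19 over 11 measured genes of 12, with 2 intervals above 1 (18.2%) and 0 below, against the same 12.7% and 13%. U2af2 (chr7:5013939-5030783), the large U2AF subunit that binds the polypyrimidine tract, had 136 reads with IL-10 and 91 without, a ratio of 1.51 (1.15 to 1.99), and all 7 introns with at least 5 reads lay on the higher side. Its small partner U2af1, which reads the AG at the intron's end, had 35 and 24 reads, a ratio of 1.47 with an interval of 0.85 to 2.58. The point values of both subunits were alike, and the depth of U2af1 does not separate it from equal.

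Sf3b1, the scaffold of the SF3b complex that clamps the branch site, had 1475 reads with IL-10 and 1539 without, a ratio of 0.97 (0.90 to 1.04). Its sum hides an uneven pattern along the gene. The introns of the 5′ side had 455 reads with IL-10 and 577 without, and those of the 3′ side 1020 and 962. Its partner Sf3b2 (chr19:5274528-5295261) had 1364 and 1161 reads, a ratio of 1.18 (1.09 to 1.28), with 17 of 20 introns on the higher side. Sf3b6, the subunit next to the branch-point adenosine, had 705 and 726 reads, and Sf3b3, the large repeat protein of the complex, 643 and 713. Both of these ratios, 0.98 and 0.91, had intervals that include 1.

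Among the proteins of the small nuclear ribonucleoproteins, 8 of 12 genes were measured, with a median log2 ratio of 0.08, and 2 intervals above 1 and 1 below, too few genes to set against the background. Snrpb (chr2:129997680-130004969), which encodes the SmB protein of the ring around the small nuclear RNAs, had 608 reads with IL-10 and 764 without, a ratio of 0.80 (0.72 to 0.89). All 6 of its introns had fewer reads with IL-10, from 67 against 106 at the 5′ end to 85 against 91 at the 3′ end. The ring partners Snrpd2 (193 and 177 reads) and Snrpd3 (266 and 262) had ratios of 1.10 and 1.02 with intervals that include 1.

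Snrpa1 (chr7:73205579-73219207), the U2-A′ protein of the U2 particle, had 139 reads with IL-10 and 85 without, a ratio of 1.65 (1.249 to 2.19). Each of its 8 introns with at least 5 reads was on the higher side, among them 21 against 12, 14 against 7, 22 against 13 and 24 against 17. Snrpb2, the other protein particular to that particle, had 114 and 104 reads, a ratio of 1.10 (0.84 to 1.46). Snrpa, of the U1 particle, had 81 reads in each library.

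Snrpe, the SmE protein, was the 1 gene called past 2-fold. It had 24 reads with IL-10 and 2 without, a ratio of 12.1 with a counting interval of 3.002 to 106. All 24 reads lay on a junction at chr1:135500654-135503077 that had 0 reads without IL-10, while the other junction with reads, chr1:135503157-135505473, had 0 with IL-10 and 2 without. The remaining introns of the gene had none in either library. Of its 5 coding introns, 4 have joined exon ends that also occur in annotated pseudogenes, and all 26 reads lay on such introns. Without introns of that kind no splicing factor gene was called past 2-fold, and the part of the copies in the value of Snrpe was not tested.

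The Prp factors had a median log2 ratio of -0.03 over all 13 genes, with 1 interval above 1 (7.69%) and 0 below, against 12.7% and 13%. Prpf8 (chr11:75300694-75322636), the protein at the catalytic centre of the spliceosome, had 1690 reads with IL-10 and 1530 without over 40 introns with at least 5 reads. Its ratio of 1.11 (1.04 to 1.19) is small, with 29 of the 40 introns on the higher side. Prpf6, a bridge within the U4/U6.U5 particle, had 495 and 500 reads, a ratio of 0.998 (0.88 to 1.13). The least certain of the family was Prpf40b, with 15 and 23 reads.

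The level per intron, which does not depend on how many introns a gene has, put Hnrnpa2b1 and Sf3b6 at the top. Medians were taken over the introns shared by all coding transcripts that had reads. They were 253.5 and 245 reads (IL-10 and untreated) over 4 introns in Hnrnpa2b1, and 240 and 249.5 over 2 in Sf3b6. Snrpd2, read on 1 intron, had 193 and 177. Snrpd3 had 107.5 and 102.5, Snrpb 85 and 109, Hnrnpu 82 and 74, Hnrnpab 81 and 59, Sf3b2 79 and 66, Sf3b1 35.5 and 45, and Prpf8 30 and 29.5. Small proteins were not all high by this measure: Snrpa1 had 20 and 12, and Snrpb2 17.5 and 17.5. For Snrpd1 the measure rests on 1 intron with 2 and 0 reads. Most of that gene's 22 and 29 reads lay on introns that not every coding transcript uses.

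No measured poison exon of a splicing factor was called as different between the libraries. The rule for a call was a difference of at least 10 percentage points with intervals that do not overlap. By structure, as exons absent from coding transcripts between exons that these join directly, the annotation holds 29 candidates in 19 of these genes, and in 19 of the 29 an annotated premature stop lies within the exon. Of the 29, 20 exons in 14 genes had at least 1 read joining them to a neighbouring exon. Only 7 exons in 6 genes had 20 reads in each library over the 3 junctions that include or skip the exon. Of these 7, 6 with such a stop, 0 were called, against 0% of the 350 poison exons measured over all genes. The 7 include both annotated forms of the Snrpb exon, which had the same reads. At these depths a difference of 14.3 points in Sf3b1 was not called. The 0 calls thus do not show equal use. Shares below are of reads on the 3 junctions that include or skip the exon. A transcript that includes the exon can give a read both into and out of it, and one that skips it only on the skipping junction. These are therefore shares of reads and not of transcripts, weighted towards inclusion, and their intervals take the reads as independent.

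Hnrnpll showed the highest inclusion of the 7. Its 83-base poison exon, shown above, took 10 of 34 reads with IL-10 (29.4%, 15.1 to 47.5) and 8 of 32 without (25%, 11.5 to 43.4). Hnrnpl, whose protein is known to promote its own poison exon and that of its paralogue Hnrnpll, had 7 of 77 reads on its 70-base exon with IL-10 (9.09%) and 9 of 88 without (10.2%). The shares of both genes were close in the libraries, within wide intervals. For both, each of the junctions into and out of the exon had reads in each library.

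In Sf3b1 the 56-base exon had 0 of 35 reads with IL-10, where 3 reads would be 8.57%, and 5 of 35 without (14.3%, 4.81 to 30.3). The exact 95% interval of the IL-10 share reached 10%, so the intervals overlap and the exon was not called. In Tra2a the 306-base exon had 0 of 23 reads with IL-10 (exact upper bound 14.8%, and 13% by the 3-read limit) and 3 of 29 without (10.3%), all 3 on the junction into the exon. In Srsf9 the exon had 1 of 45 reads with IL-10 and 0 of 54 without. In Snrpb both annotated forms of the exon had 0 of 163 reads with IL-10 and 0 of 212 without, which allows up to 1.84% and 1.42% by the 3-read limit.

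Srsf3 and Tra2b had fewer than 20 reads in at least 1 library over these junctions and were not measured, and no read skipped their exons. All 13 reads of Srsf3 with IL-10 and all 10 without lay on the junctions of the 456-base exon, with 9 and 4 into it and 4 and 6 out of it. None lay on the introns that join its coding exons. For 4 of the 5 coding introns of Srsf3, among them the one that skips the poison exon, the joined exon ends also occur in annotated pseudogenes, and for the junctions of the poison exon they do not. In Tra2b 10 reads with IL-10 and 15 without led into the poison exon and 1 in each library led out of the 276-base form, with 0 skipping it. Here 7 of 8 coding introns have such copies, the skipping junction included. In neither gene can the reads give a share of transcripts with the poison exon.

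A wider view comes from introns of transcripts annotated as targets of nonsense-mediated decay that no coding transcript has (decay-only introns). Such introns can also occur in other transcripts not annotated as coding. Splicing factor genes had 131 such reads of 21846 with IL-10 (0.600%, 0.502 to 0.711) and 132 of 21390 without (0.617%, 0.517 to 0.731), so the shares in the libraries overlapped. Hnrnpdl, Hnrnpa1, Tra2b and Srsf3 held 76 and 63 of these reads, and without these 4 genes, picked for their counts, the shares were 0.256% and 0.327%. Over all 8438 coding genes the shares were 0.0709% and 0.0673%. At least 1 such read was seen in 23 of the 62 splicing factor genes (37.1%) and in 812 of all coding genes (9.62%). The annotation gives such introns to 31 of the 62 (50%) and to 32.2% of all coding genes. Among genes so annotated, 74.2% of splicing factor genes and 29.9% of all coding genes had reads on them. These shares of genes were not matched for depth. At least 500 reads were found in 28 of the 62 splicing factor genes, against 2396 of all 8531 genes.

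**Figure D3:**
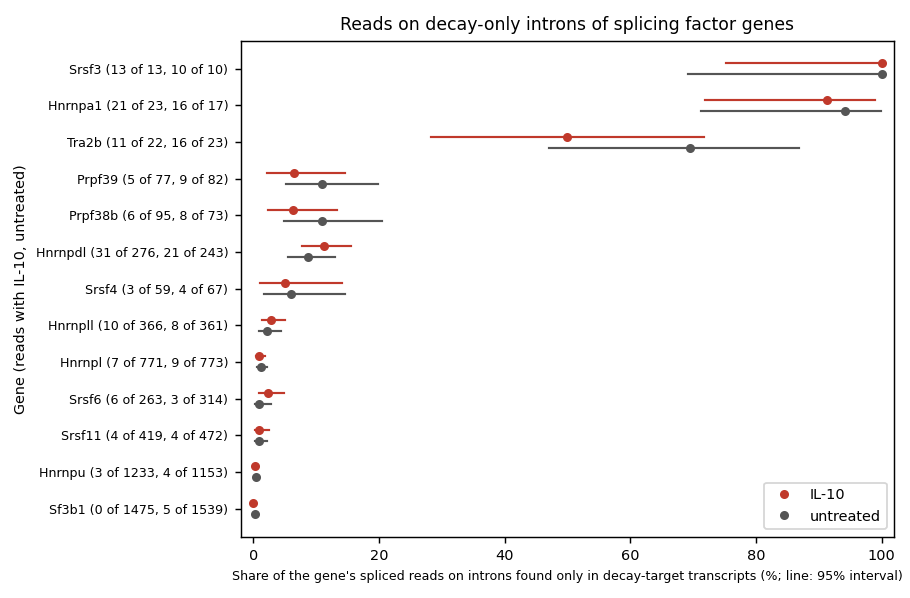
Share of a gene's junction-spanning reads (percent) on decay-only introns, which decay-target transcripts have and no coding transcript has. Splicing factor genes with at least 5 such reads over both libraries are shown, with IL-10 in red and untreated in grey and reads in brackets. Points are shares and lines 95% counting intervals; the lines of the libraries overlap in every gene shown, and Srsf3, Hnrnpa1 and Tra2b lie far to the right.

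The highest counts of such reads were in Srsf3, Tra2b, Hnrnpa1 and Hnrnpdl. In Srsf3 and Tra2b they are the poison exon junctions given above. In Hnrnpa1, a repressor of exon inclusion, 21 of 23 reads with IL-10 and 16 of 17 without lay on 1 intron, chr15:103076853-103076975, and 8 of its 12 coding introns have copies in pseudogenes. In Hnrnpdl, a relative of Hnrnpd, they were 31 of 276 reads of the gene with IL-10 (11.2%) and 21 of 243 without (8.64%). All lay on the junctions into and out of a 105-base exon. Of the reads that include or skip this exon, they were 31 of 40 with IL-10 (77.5%, 61.6 to 89.2) and 21 of 32 without (65.6%, 46.8 to 81.4). Fewer such reads, out of all reads of the gene, were seen in Prpf39 (5 of 77 and 9 of 82), Prpf38b (6 of 95 and 8 of 73), Srsf4 (3 of 59 and 4 of 67) and Srsf6 (6 of 263 and 3 of 314). In Srsf6 the decay-only junction chr2:162758819-162759161 competes for an acceptor with the junction that skips its exon, and took 6 of 20 reads at that acceptor with IL-10 (30%, 11.9 to 54.3) and 3 of 34 without (8.82%, 1.86 to 23.7).

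Choices between competing splice sites gave no call either. At donors or acceptors with at least 20 reads in each library, the share of each junction was compared for 184 junction ends at 85 sites of 33 splicing factor genes. None differed by 20 percentage points with intervals apart, against 0.133% of 20246 junction ends over all genes, and none had intervals apart at any size, against 0.479% (0.217% from 10 points up). The median absolute difference was 2.90 points (1.85 over all genes), and 136 of the 184 (73.9%) differed by less than 5 points, against 83.6%. The counts at 0 are what these small background shares give for so few junctions, so they do not show that the shares were alike.

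**Figure D4:**
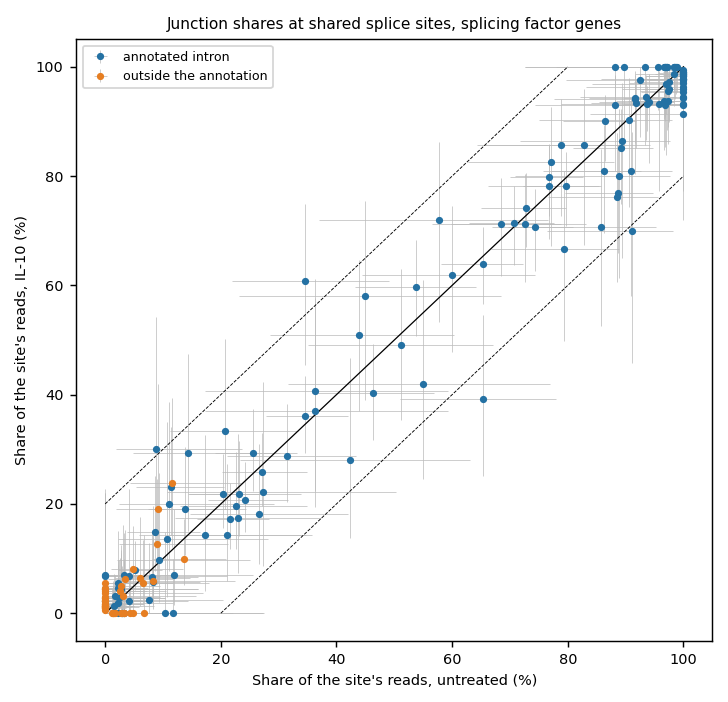
Share of a splice site's reads taken by each junction (percent), untreated on the horizontal and IL-10 on the vertical axis, for 184 junction ends of splicing factor genes with at least 20 reads per library. Grey lines are 95% counting intervals, dashed lines mark 20 points, blue is annotated and orange is outside the annotation; most points hug the diagonal, and the few at or beyond a dashed line have wide intervals.

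Exons that these genes include or skip also had intervals that overlap between the libraries. Of 18 such exons in 13 genes with 20 or more reads in each library, some of them the poison exons above, 0 had intervals apart. No share over such exons of all genes stands beside this count, so it does not show equal use. Hnrnpab, whose 141-base exon near the 3′ end separates a long from a short protein, had 103 of 225 reads on the junctions of the exon with IL-10 (45.8%, 39.1 to 52.5) and 95 of 216 without (44.0%, 37.3 to 50.9). In Hnrnpa2b1 a 120-base exon had 84.0% of 282 reads with IL-10 and 84.8% of 270 without. The 36-base exon that makes the B1 form of the same gene had 12 of 91 reads (13.2%, 7.004 to 21.9) with IL-10 and 2 of 61 (3.28%, 0.400 to 11.4) without, and these intervals overlap. Srsf2, whose transcripts can splice within the 3′ end and become decay targets, gave its main junction at 1 site 78.1% of reads with IL-10 and 76.8% without. Srsf5 stood at 79.8% and 76.8% at its best covered site, and Hnrnpc at 71.3% and 70.7%.

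Hnrnpd gave the widest difference. Its 57-base exon near the 5′ end and its 147-base exon near the 3′ end together define the known AUF1 protein forms. At the donor before the 57-base exon, the junction that skips it took 28 of 46 reads with IL-10 (60.9%, 45.4 to 74.9) and 18 of 52 without (34.6%, 22.0 to 49.1), a difference of 26.3 points with intervals that overlap. Counted over all 3 junctions of the exon, inclusion took 61.6% of 73 reads (49.5 to 72.8) with IL-10 and 75.3% of 73 (63.9 to 84.7) without. This count takes reads both into and out of the exon as inclusion. It is thus not a share of transcripts and not on the same scale as the donor shares. The 147-base exon took 51.9% of 160 reads (43.9 to 59.8) with IL-10 and 56.9% of 116 (47.4 to 66.1) without. The higher amount of Hnrnpd with IL-10 thus came with no called difference in either exon.

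Many splicing factor genes have processed copies, pseudogenes made from spliced mRNA, in which exons are already joined. Of 68 genes with introns, 37 had at least 1 coding intron whose joined exon ends, 20 bases from each side with up to 2 mismatches, occur in an annotated pseudogene, and 19 had this for at least 50% of their introns. Of the 173 coding introns with a copy 84 (48.6%) had any read, and of 653 without a copy 527 (80.7%) had. Of the 8 genes not measured, Hnrnpa0 and Sf3b5 have no intron, Snrpf had 1 read without IL-10 and 0 with it, and Hnrnpa3, Snrpc, Snrpg, Snrpn and Srsf12 had no match. In Hnrnpa3 10 of 12 introns have a copy, in Snrpg 3 of 3. Just above the minimum of 20 reads stood Srsf10 (7 and 16), Srsf3 (13 and 10), Snrpe (24 and 2) and Hnrnph2 (15 and 16).

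**Figure D5:**
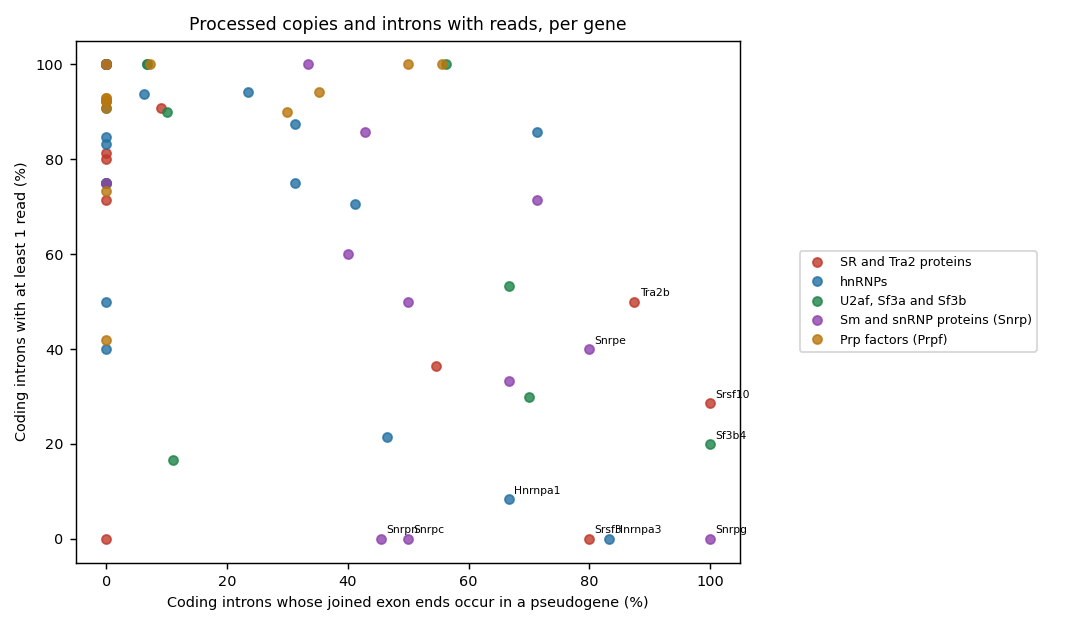
For each splicing factor gene with introns, the percent of coding introns whose joined exon ends also occur in an annotated pseudogene (horizontal) and the percent of coding introns with at least 1 read in either library (vertical), coloured by family. Genes with few copied introns mostly have reads on more than 70% of introns, while Srsf3, Hnrnpa3 and Snrpg at the lower right have reads on none.

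Without the copied introns, U2af2 still had a ratio of 1.60 (1.06 to 2.42), and Snrpb one of 0.82 (0.72 to 0.95). In U2af2 5 of 15 introns were left, and 3 of these had reads. Snrpa1 has no copied intron among its 8. These ratios were on the same side of 1 as with all introns.

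Lists of other genes of the pathway gave 0 genes past 2-fold in either direction, where 1.76% and 1.51% of all genes were higher and lower. Intervals off 1 are read against 12.7% above and 13% below over all genes, and against 22.5% and 20% over genes with 500 to 5000 reads. The factors of nonsense-mediated decay had 2 intervals above 1 and 3 below among 16 measured of 16, with a median log2 ratio of 0.02. Upf1, the helicase at the centre of the pathway, had 329 reads with IL-10 and 271 without (1.22), while Upf3b, which links it to the exon junction complex, had 32 and 56 (0.58) and Smg8, a regulator of the Smg1 kinase, had 21 and 42 (0.50). Of the kinases that phosphorylate SR proteins, 7 of 8 were measured, with 1 interval above 1 and 1 below. Clk1, which releases SR proteins into the nucleoplasm, had 320 and 436 reads, a ratio of 0.74 (0.64 to 0.86).

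Other splicing regulators had 8 intervals above 1 and 6 below among 27 measured of 28, 19 of which had at least 500 reads, with a median log2 ratio of 0.07. The nuclear speckle proteins Son (524 and 400 reads, 1.32) and Srrm1 (410 and 301, 1.37) were on the higher side, and Mbnl1, a switch of tissue-specific exons, was on the lower (899 and 1135, 0.80). Other spliceosome subunits had 3 intervals above 1 and 5 below among 38 measured of 40, with a median of -0.03, among them Lsm6 of the U6 ring (63 and 38, 1.67) and the helicase Ddx41 (728 and 877, 0.84). Each of these lists thus held genes on both sides of equal.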

How the data were processed

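The submitters' processing notes name TopHat and Cufflinks, with no version, and the mm9 build. The deposited values are raw counts of reads across each splice junction, per the file headers, and were not scaled by the authors. How reads with several matches were placed is not given in the sources used here. Junctions took gene names from GENCODE M21 introns (a later build) of the same chromosome, strand and exact length, where at least 2 introns of a gene shared an offset of up to 20 Mb, or where the genes on both sides shared it (3 of the 63 matched genes: Sf3b4, Snrpd2 and Snrpf). Of 131057 junctions 106593 matched 1 gene. Ratios were scaled by named reads and carry exact conditional binomial 95% intervals, shares carry Clopper-Pearson intervals, 0.5 reads were added for log2 ratios, and the limit for a count of 0 is 3 reads. Intervals and limits cover counting error only.

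A poison exon is an internal exon of a transcript not annotated as coding, absent from coding exons, between exons that coding transcripts join directly. Copies were searched in 13607 annotated pseudogene transcripts. Genes, lists and thresholds were chosen with earlier results of these data known. Genes named were up to 6 above and 6 below 1 by the bound of an interval that excludes 1 (6 and 3 genes), the 3 with the most reads in each family, and those with a measured poison exon. Other genes, the alternative exons, the comparison of 5′ and 3′ introns and the values without copied introns or with shifted junctions were chosen after values were seen. Some of the genes the rule names are counted but not reported by name here. Scripts were tested on simulated data. Alternatives used the TMM factor of edgeR 4.0.16 and the size factors of DESeq2 1.42.0 in R 4.3.3, and other steps used scipy 1.17.1, numpy 2.4.6, pandas 2.3.3 and matplotlib 3.10.9 under Python 3.11.15.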

Additional observations from a re-analysis of the deposited data

Results flagged for a closer look

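A junction of Hnrnpc outside the annotation, chr14:52695404-52697079, had 7 reads with IL-10 and 0 without. It has the length of the annotated intron chr14:52695402-52697077, which had 15 and 11 reads, shifted by 2 bases, and whether it is a separate junction was not tested. It is listed here because it lies outside the junctions compared above and exceeds the 3 reads that a count of 0 allows. The exact 95% interval of the ratio of 7 to 0 reads had its lower end at 1.45. The junction was picked by that bound from all junctions of these genes outside the annotation, so the interval is not a test of a difference. With these reads added to the gene, Hnrnpc had a ratio of 1.002 (0.868 to 1.16).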

How the results depend on the processing

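Each value compares 1 library with 1 library, so leaving out a replicate was not possible. No paired analysis was possible because each group has 1 library. Of 260 ratios of the 24 named genes under other settings, 246 kept their call, 10 lost it, 3 gained one and 1 changed sides: Sf3b2 had a ratio of 0.95 on its intron with the most reads. The median log2 ratio of the splicing factors was 0.15 on the intron with the most reads (0.05 over all genes). The count called past 2-fold was 0 with at least 100 reads, 0 on introns of every coding transcript alone and 0 without introns that have a copy. At 1.5-fold the count was 3 (Snrpa1, Snrpe and U2af2). Intervals off 1 numbered 7 in place of 11 on introns of every coding transcript alone. Those below 1 numbered 1 there and 1 with a 99% interval, in place of 3. With junctions that repeat an annotated intron a few bases off, added after the data were seen, 10 intervals lay off 1, and Hnrnpul1 (1.12, 0.994 to 1.26) no longer did. Srsf6 lost its call in 4 settings and Tra2a in 3. On the intron with the most reads, Hnrnpul2, Prpf8 and Snrpa1 lost theirs and Sf3b1 was higher (1.252, 1.04 to 1.51). Why was not tested. Poison exons and junction shares gave 0 calls under every alternative run. A search for copies in the genome was not run, since no genome was used here, and pseudogene transcripts took its place.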

Other observations

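Splicing factor genes also held junctions outside the annotation. Both ends of 11 such junctions were annotated splice sites, with 17 reads with IL-10 and 8 without, 51 had 1 annotated end, with 77 and 60 reads, and 26 had none, with 44 and 67. Of the 26, 15 repeat the exact length of an annotated intron of the same gene within 10 bases, with 34 reads with IL-10 and 59 without, and the other 11 had 10 and 8. The most read of the shifted ones was a junction of Hnrnpul1, chr7:26508012-26509568, with 11 reads with IL-10 and 20 without, beside 112 and 102 on the annotated intron 5 bases away. A junction of Srsf11, chr3:157675165-157675273, had 11 and 17 reads.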
